A study of Homo sapiens with 38 samples.

Results

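SP1, SP2, SP3 and SP4 encode transcription factors that share a DNA-binding domain of zinc fingers at the C terminus, and the peaks at these 4 genes were taken from CUT&RUN data of tagged Sp1 and of Sp1 constructs. A peak counted for a gene when it lay in the gene or within 5000 bp of one of its transcript starts in GENCODE 44 on hg38. By this rule 32 of the 27085 peaks in 19 deposited lists lay at the 4 genes, which are 4 of 20046 protein-coding genes. All 32 peaks came from the 11 lists of proteins that carry the Sp1 zinc fingers, and they formed 1 site at the start of each gene. SP1, SP2 and SP4 each had a peak in 10 of these 11 lists, and SP3 had one in 2.

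Sp factors bind GC-rich DNA, most often the GC box, whose core is written here as GGGCGG on either strand. Sp1 and Sp3 are found in most cell types, where they bind promoters that lack a TATA box and lie in CpG islands. Sp1, Sp3 and Sp4 have glutamine-rich activation regions before the zinc fingers, and Sp3 also acts as a repressor. Sp2 is the most divergent of the 4 in its zinc fingers. The promoters of several SP genes themselves contain GC boxes, which is why binding of Sp1 to SP genes is often discussed as autoregulation. Another common promoter element is CCAAT, the binding sequence of NF-Y.

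CUT&RUN uses an antibody to bring a nuclease to a protein in permeabilised cells, so that the DNA beside the protein is cut out and sequenced. All cells came from U2OS, a human osteosarcoma line, edited so that the endogenous SP1 gene encodes V5-Halo-Sp1 (the parental line). Derived lines expressed a FLAG-tagged transgene under doxycycline, namely Sp1 WT, the Sp1 DBD (Sp1 without its N-terminal part, with the zinc fingers), EWS-Sp1 DBD (the low-complexity part of EWS joined to it), Sp1 AD-LacI, Sp1 AD-CTCF DBD, LacI, CTCF DBD, a mutant Sp1 that keeps a single zinc finger, or SNAP-NLS. The 38 samples came as 2 biological replicates for every 1 of 19 pairs of a line with an antibody, and all cells received 1 μg/ml doxycycline for 36 h before sorting and for 36 h after it. Anti-FLAG reads the transgene, and anti-V5 reads endogenous Sp1, which every line also carried. Rabbit and mouse anti-V5 were each used in the parental, Sp1 WT, Sp1 AD-LacI and Sp1 AD-CTCF DBD lines, which gave 8 anti-V5 lists. The 3 anti-FLAG lists of proteins with the Sp1 zinc fingers (Sp1 WT, Sp1 DBD and EWS-Sp1 DBD) make up the 11 together with these. The remaining 8 lists were anti-FLAG lists of the other constructs and of the parental line, which has no FLAG tag.

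Each list was made by the authors from both replicates and held the peaks whose irreproducible discovery rate (IDR, a measure of how well replicates agree on a peak) did not exceed 0.1. A list therefore had no replicates of its own, and its entries carried a −log10 p-value for each replicate, the smaller of which stood for the merged peak. Peaks were ranked within a list by that value, and a rank is given below as a percent from the top of the list, so that small values mark strong peaks. The lists ranged from 1332 to 5151 peaks in the 11 and from 22 to 649 in the other 8, and their read depth is unknown. No test was made between conditions. An exact permutation test of 2 against 2 replicates cannot go below p = 0.33, and one over the 4 lines with both anti-V5 antibodies cannot go below p = 0.125. The values of the 2 replicates and the share of all genes or peaks with the same property are given in its place.

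The DNA around the typical summit, the point of highest signal in a peak, is shown for SP1, SP2 and SP4, since these are the windows in which most summits fell. The summit of a merged peak lay midway between the summits of its replicates. Each window is 201 bases of hg38 centred on the median summit, on the strand of the gene, with the GC boxes in capitals. The SP1 window is chr12:53379869-53380069, 307 to 107 bp before the start of the MANE transcript (the reference transcript of a gene). The SP2 window is chr17:47895937-47896137, 299 to 99 bp before the start, and the SP4 window is chr7:21427284-21427484, 799 to 599 bp before it. All 3 lie upstream of the first exon on the plus strand. For SP3 the summits of the replicates lay far apart, so only the last 30 bases before the start are shown (chr2:173965374-173965403, minus strand), which hold the GC boxes nearest to it.
SP1: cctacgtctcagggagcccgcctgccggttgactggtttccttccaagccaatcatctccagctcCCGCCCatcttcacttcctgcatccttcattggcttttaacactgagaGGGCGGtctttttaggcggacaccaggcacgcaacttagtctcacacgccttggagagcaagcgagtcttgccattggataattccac
SP2: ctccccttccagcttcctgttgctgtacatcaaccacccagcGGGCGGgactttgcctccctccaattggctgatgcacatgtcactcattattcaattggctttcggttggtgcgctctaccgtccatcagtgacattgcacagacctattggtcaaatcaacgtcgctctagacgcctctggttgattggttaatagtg
SP4: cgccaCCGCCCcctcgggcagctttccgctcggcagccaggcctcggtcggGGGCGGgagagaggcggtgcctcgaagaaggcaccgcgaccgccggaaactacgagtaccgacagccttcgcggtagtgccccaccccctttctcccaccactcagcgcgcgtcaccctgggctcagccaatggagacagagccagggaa
SP3: aagaagagGGGCGGgagttccGGGCGGgct
The SP1 and SP4 windows each hold 2 GC boxes, and the SP2 window holds 1. CCAAT, counted on both strands, occurs 3 times in the SP1 window, 5 times in the SP2 window and 1 time in the SP4 window.

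Which constructs were recovered at the SP genes was read from the presence of a peak. The Sp1 DBD list, with 3277 peaks, was the only 1 of the 19 lists with a peak at all 4 genes, where 18.4% of all protein-coding genes had one. The Sp1 WT anti-FLAG list had a peak at SP2, SP3 and SP4 but none at SP1 (3 of 4, against 27.5% of all genes). The EWS-Sp1 DBD list had a peak at SP1, SP2 and SP4 (3 of 4, against 13.3%). The 3 lists thus shared SP2 and SP4 and differed in SP1 and SP3.

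With rabbit anti-V5, the parental list had SP1 and SP2 (2 of 4, against 12.1% of all genes) and the Sp1 WT line had SP1, SP2 and SP4 (3 of 4, against 10.1%). The Sp1 AD-LacI line had SP1 and SP4 (2 of 4, against 13.0%), and the Sp1 AD-CTCF DBD line had SP1, SP2 and SP4 (3 of 4, against 13.0%). With mouse anti-V5, all 4 lines had peaks at SP1, SP2 and SP4. The background was 11.3% of genes in the parental line, 8.06% in the Sp1 WT line, 10.2% in the Sp1 AD-LacI line and 8.56% in the Sp1 AD-CTCF DBD line. Endogenous Sp1 was thus listed at SP1 in 8 of 8 anti-V5 lists, at SP2 and SP4 in 7 of 8 each, and at SP3 in none.

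The other 8 lists had no peak at any of the 4 genes. Among all protein-coding genes the share with a peak was 2.79% for CTCF DBD, 0.823% for Sp1 AD-CTCF DBD, 0.00499% for Sp1 AD-LacI and 0.0% for LacI. It was 0.0% for mutant Sp1, 0.00998% for SNAP-NLS, 0.00499% for the parental line with mouse anti-FLAG and 0.0649% with rabbit anti-FLAG. With shares this low, the absence of 4 genes from these lists is no different from that of most genes. Of all protein-coding genes, 33.2% had a peak in at least 1 of the 11 lists and 4.85% in at least 10 of them, the group to which SP1, SP2 and SP4 belong. A peak in all 11 lists was found for 2.59% of genes and for none of the 4.

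**Figure D1:**
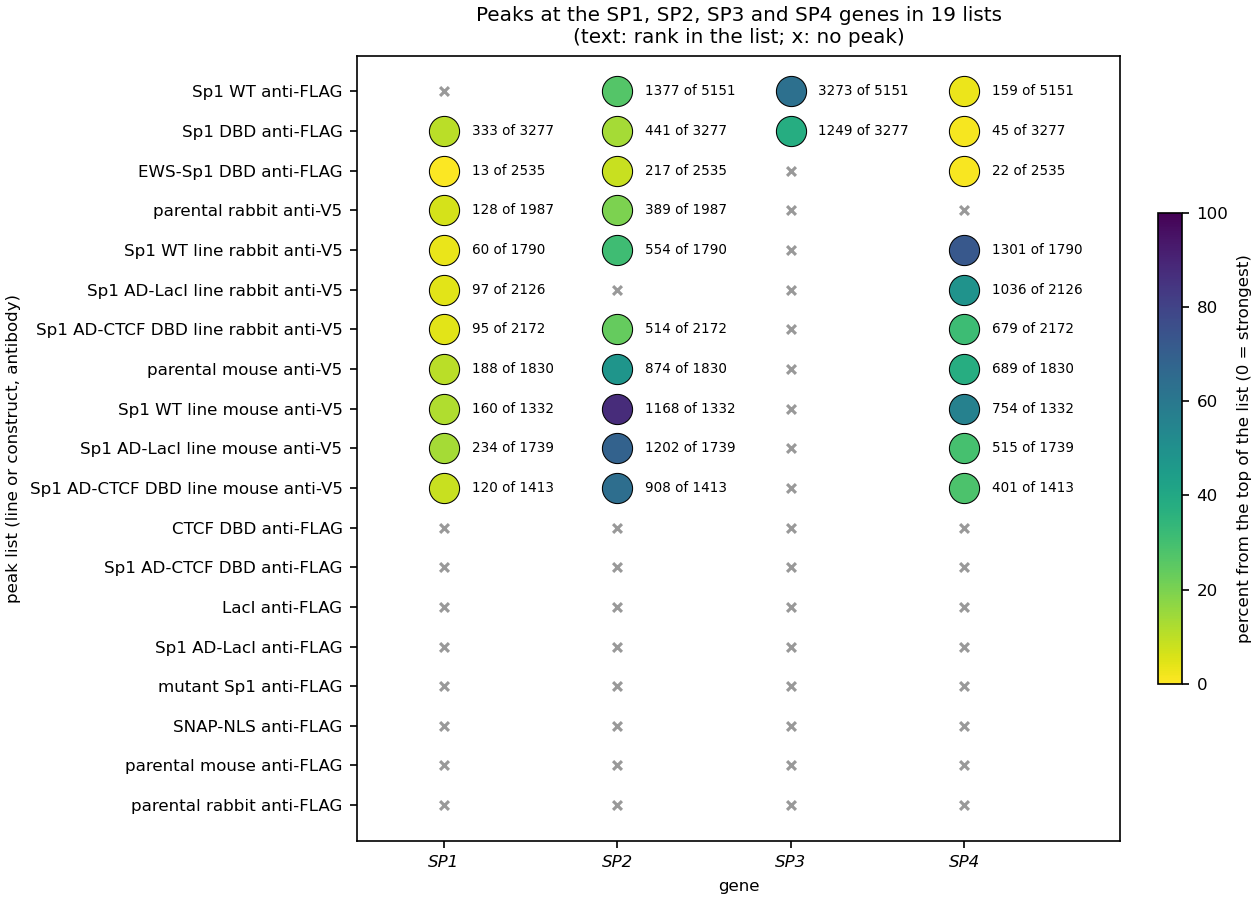
Peaks at SP1, SP2, SP3 and SP4 (columns) in the 19 lists (rows). A filled circle is a peak, coloured by its percent from the top of the list (0 is strongest) with its rank beside it, and a cross is a list with no peak. SP1, SP2 and SP4 are filled in 10 of the upper 11 rows, SP3 in 2, and the lower 8 rows hold crosses alone.

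SP1, which encodes the studied factor itself, had the strongest peaks of the 4 with endogenous Sp1. Its site spanned chr12:53379201-53381676 over the 10 lists, across the transcript start at 53380176 on the plus strand. With rabbit anti-V5 the SP1 peak stood 6.44% from the top in the parental line, 3.35% in the Sp1 WT line, 4.56% in the Sp1 AD-LacI line and 4.37% in the Sp1 AD-CTCF DBD line. With mouse anti-V5 it stood at 10.3%, 12.01%, 13.5% and 8.49% in the same order. All 4 rabbit values were above all 4 mouse values in rank, and by each replicate too the rabbit peaks were the higher (2.40% to 6.74% against 8.56% to 14.0%). Of 1025 genes with a peak in all 8 anti-V5 lists, 35.9% ranked higher with the rabbit antibody in all 4 lines and 8.2% with the mouse antibody, so SP1 took the commoner order.

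In the EWS-Sp1 DBD list the SP1 peak was number 13 of 2535, 0.513% from the top, with −log10 p-values of 62.6 and 86.6 in the replicates. In the Sp1 DBD list it was number 333 of 3277, 10.2% from the top, and here the replicates disagreed. Their −log10 p-values were 35.7 and 89.5, which put the peak 13.3% from the top by 1 replicate and 0.214% by the other. Its place in the Sp1 DBD list therefore overlapped its place in the EWS-Sp1 DBD list, where the replicates gave 0.828% and 0.276%.

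The Sp1 WT anti-FLAG list was the longest of the 19, and it held no peak in SP1 or within 5000 bp of its transcript starts. Its nearest peak lay 41253 bp from the SP1 start, number 4672 of 5151, and the closest protein-coding start to that peak was that of AMHR2, a receptor gene of the TGF-beta family. Among 593 genes with a peak in all 10 other lists, 73 (12.3%) likewise had none in the Sp1 WT anti-FLAG list. The authors also deposited 6 tables of regions in which the replicate-combined signal of Sp1 WT was set against that of another construct. All 6 tables had regions over the SP1 site, covering 85.8% to 100% of it, and 4 of them set Sp1 WT against a construct with no listed peak there. The same tables had regions at SP2, SP3 and SP4 too, and the share of all genes with such regions was not counted. Whether Sp1 WT gave signal at SP1 was not tested. Which of the 2 proteins gave the regions was not read, and whether a Sp1 WT peak was called in only 1 replicate was not tested.

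SP1 is also the edited gene and the source of the transgenes. Its coding sequence begins 116 bp after the MANE start, within the site, and the SP1 peaks held 7 coding bases in 9 of the lists and 25 in the EWS-Sp1 DBD list. Of its 6 coding exons, 4 lay outside every peak. By the study's description the tag sits at the N-terminal end of the encoded protein, and so near the start of the coding sequence and within the site. What the edit or transgene DNA adds to the peaks was not tested.

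SP1 summits lay upstream of the start in all 10 lists, from 271 to 144 bp before it. The 2 GC boxes in the window printed above, 242 to 237 and 194 to 189 bp before the start, were within 100 bp of 10 of 10 summits. The nearest GC box was centred 0.5 to 47.5 bp from the merged summit. The distance of 0.5 bp belongs to the Sp1 AD-LacI line with rabbit anti-V5. Its merged summit, 240 bp before the start, lay midway between replicate summits 283 and 196 bp before it. The whole site held 23 GC boxes, and 17 of them lay between 213 and 641 bp after the start, where no summit fell. Summits therefore sat on the sparser upstream group, not on the dense group in the transcribed region. Only 0.852% of the peaks in the 11 lists, the SP1 peaks included, held as many as 23 GC boxes, overlapping matches counted. The SP1 peaks were also longer than 95.2% to 97.9% of the peaks in their list, and the count was not set against length.

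SP2 ranked below SP4 in the 3 anti-FLAG lists, above SP3 where SP3 had a peak, and lower with mouse than with rabbit anti-V5 in the 3 lines with both peaks. Its site spanned chr17:47895514-47897220, with the MANE start at 47896236 on the plus strand. In the anti-FLAG lists the SP2 peak stood 26.7% from the top for Sp1 WT (number 1377), 13.5% for the Sp1 DBD (number 441) and 8.56% for EWS-Sp1 DBD (number 217). With rabbit anti-V5 it stood at 19.6% in the parental line, 30.95% in the Sp1 WT line and 23.7% in the Sp1 AD-CTCF DBD line, and no peak was listed in the Sp1 AD-LacI line. With mouse anti-V5 it stood at 47.8% in the parental line, 87.7% in the Sp1 WT line, 69.1% in the Sp1 AD-LacI line and 64.3% in the Sp1 AD-CTCF DBD line.

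The rabbit and mouse values for SP2 did not overlap in the 3 lines that had both, also by single replicates, but the Sp1 AD-LacI line had the mouse peak and no rabbit peak. In the 3 lines the rabbit percentile was higher by 28.2 points in the parental line, 56.7 in the Sp1 WT line and 40.6 in the Sp1 AD-CTCF DBD line. In these lines 93.0%, 99.6% and 92.6% of genes with both peaks had a smaller gap in that direction. The weakest SP2 peak came from mouse anti-V5 in the Sp1 WT line, with −log10 p-values of 11.99 and 29.2, and the strongest among the anti-V5 lists was that of the parental line with the rabbit antibody, with 42.0 and 58.0.

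At SP2 the place of the summit also differed between lists, and whether the construct set it was not tested. In the Sp1 WT list and the 7 anti-V5 lists it lay 239 to 192 bp before the MANE start. In the Sp1 DBD list it lay 143 bp after the start, in an intron, and in the EWS-Sp1 DBD list 97 bp after it, in an exon of another transcript. The replicates agreed within 31 bp for the Sp1 DBD and within 7 bp for EWS-Sp1 DBD, and no other list put either replicate downstream. The Sp1 DBD and Sp1 WT summits were 351 bp apart, while the median gap was 36 bp over 2516 overlapping pairs of peaks and 4.49% of pairs lay at least as far apart. The EWS-Sp1 DBD and Sp1 WT summits were 305 bp apart (7.02% of 1824 pairs), and the Sp1 DBD and EWS-Sp1 DBD summits 46 bp (43.7% of 1834 pairs). Both constructs without the Sp1 N-terminal part had the summit in the transcribed region, and these peaks were still wide enough to cover the upstream position. At SP1 and SP4 the summits of both constructs lay upstream of the start, as in the other lists with a peak there.

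The motifs at the 2 SP2 positions differ. The upstream GC box, 257 to 252 bp before the start, was within 100 bp of 8 summits, and these 8 peaks each had 4 or 5 CCAAT within 100 bp. Of the peaks in the 11 lists, 36.4% had a CCAAT that near to the summit and 0.312% had as many as 5. In the 300 bp promoter window of RefSeq, 250 bp before to 50 bp after its own start, SP2 held 8 CCAAT on both strands. As many were held by 0.021% of 19061 promoters, overlapping matches included. The RefSeq start need not be the MANE start, so these window counts cannot be matched to positions from the MANE start. Downstream, 6 GC boxes lay between 196 and 314 bp after the MANE start. Of these, 2 were within 100 bp of the Sp1 DBD summit and none of the EWS-Sp1 DBD summit, whose nearest GC box was centred 101.5 bp away. The start of SP2-DT, a divergent long non-coding RNA, lay at 47895844, 193 bp from the median summit, against 113 bp for the nearest SP2 start. The site thus lay at the starts of both genes, and a peak there cannot be assigned to 1 of them.

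SP4 ranked above the other members in the Sp1 WT and Sp1 DBD lists and below SP1 in the EWS-Sp1 DBD list. It had middle ranks with endogenous Sp1. The Sp1 WT list had no SP1 peak, and in the Sp1 DBD list the replicate ranges of SP4 and SP1 overlapped. Its site spanned chr7:21426854-21429080, with the MANE start at 21428083 on the plus strand. The SP4 peak was number 159 of 5151 in the Sp1 WT list (3.09% from the top), number 45 of 3277 in the Sp1 DBD list (1.37%) and number 22 of 2535 in the EWS-Sp1 DBD list (0.868%). By single replicates it stayed between 1.42% and 3.30% in all 3 lists. The −log10 p-values were 63.7 and 95.7 for Sp1 WT, 60.7 and 57.4 for the Sp1 DBD, and 57.8 and 58.0 for EWS-Sp1 DBD. The SP4 peak was thus near the top whether the zinc fingers came with the Sp1 N-terminal part, with the EWS part in its place or with neither.

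With rabbit anti-V5 the SP4 peak stood 72.7% from the top in the Sp1 WT line, 48.7% in the Sp1 AD-LacI line and 31.3% in the Sp1 AD-CTCF DBD line, and the parental list had none. With mouse anti-V5 it stood at 37.7% in the parental line, 56.6% in the Sp1 WT line, 29.6% in the Sp1 AD-LacI line and 28.4% in the Sp1 AD-CTCF DBD line. All anti-FLAG ranks of SP4 were above all its anti-V5 ranks. The same held for 23.1% of the 666 genes with a peak in all 3 of these anti-FLAG lists and at least 7 anti-V5 lists, and the opposite for 2.1%. The anti-FLAG lists are of other lengths than the anti-V5 lists and come from another antibody, and their part in this order was not tested.

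SP4 went the other way from SP1 and SP2 between the antibodies to V5. Its rabbit percentile was below its mouse percentile in 3 of 3 lines, with a difference (rabbit minus mouse) of -16.1 points in the Sp1 WT line, -19.1 in the Sp1 AD-LacI line and -2.9 in the Sp1 AD-CTCF DBD line. In these lines 7.92%, 6.75% and 14.0% of genes had a still lower gap. The replicate ranges in the Sp1 WT line were 46.9% to 72.8% with rabbit and 27.1% to 56.6% with mouse anti-V5, and those in the Sp1 AD-CTCF DBD line were 16.5% to 45.5% and 29.5% to 45.3%, so both overlapped. Only in the Sp1 AD-LacI line did they not (42.8% to 48.7% against 19.7% to 30.4%).

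SP4 summits lay further upstream than those of SP1. In the 7 anti-V5 lists they fell 763 to 681 bp before the MANE start, in the Sp1 DBD list 681 bp and in the EWS-Sp1 DBD list 652 bp before it. In the Sp1 WT list the merged summit was 502 bp before the start, but this is a midpoint of replicate summits 256 and 747 bp before it. The second of these falls where the other lists have theirs. The nearest annotated start to the median summit was not that of SP4, which was 659 bp away, but that of a long non-coding RNA (ENSG00000290069) at 21427548, 163 bp away. The rule assigned the peak to SP4 by distance to its start, and which of the starts it serves was not tested.

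Of the 11 GC boxes in the SP4 site, the box 748 to 743 bp before the start was within 100 bp of 9 of 10 summits and the box 794 to 789 bp before it was within 100 bp of 6. Both are in the window printed above. A further 4 boxes between 107 and 20 bp before the start had no summit within 100 bp. The boxes next to the SP4 start were thus not those under the summits.

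SP3 was the exception, with 2 peaks. In the Sp1 WT list its peak was number 3273 of 5151, 63.5% from the top, with −log10 p-values of 15.3 and 31.8. In the Sp1 DBD list it was number 1249 of 3277, 38.1% from the top, with 19.4 and 26.4. These were the weakest SP gene peaks in their lists. By single replicates the SP3 peak stood at 49.7% and 63.5% in the Sp1 WT list and at 30.0% and 45.9% in the Sp1 DBD list, so the ranges did not overlap. The difference in percentile (Sp1 WT minus Sp1 DBD) was -25.4 points, and 6.65% of 3036 genes with both peaks had a lower gap.

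No peak was listed at SP3 for EWS-Sp1 DBD or for endogenous Sp1 with either antibody, and the nearest peaks of these 9 lists lay 283010 to 521659 bp from its start. Of the 3036 genes with a peak in the Sp1 WT and Sp1 DBD lists, 526 (17.3%) had none in the other 9 lists, like SP3. These are also the 2 longest lists of the 11. Cut to the 1332 strongest peaks, the length of the shortest of the 11, the Sp1 DBD list kept the SP3 peak and the Sp1 WT list lost both its SP3 and its SP2 peak.

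The SP3 site, chr2:173963462-173965962, had the highest GC content of the 4 (71.6%, against 56.5% to 60.6%) and 17 GC boxes, and it held CCAAT 2 times. SP3 is on the minus strand with its MANE start at 173965373. The merged summits fell 360 bp after the start in an intron for Sp1 WT and 842 bp after it in a coding exon for the Sp1 DBD. Neither merged summit lay near a replicate summit, because the replicate summits were 761 and 700 bp apart. For Sp1 WT they fell 21 bp before and 740 bp after the start, and for the Sp1 DBD 492 and 1192 bp after it. The replicate summit 21 bp before the start lies on the GC boxes printed above, at 22 to 17 and 9 to 4 bp before it. The peak covered 2207 bp for Sp1 WT and 2397 bp for the Sp1 DBD, longer than 95% and 96.4% of the peaks there, and its position within that length was not fixed by the replicates.

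**Figure D2:**
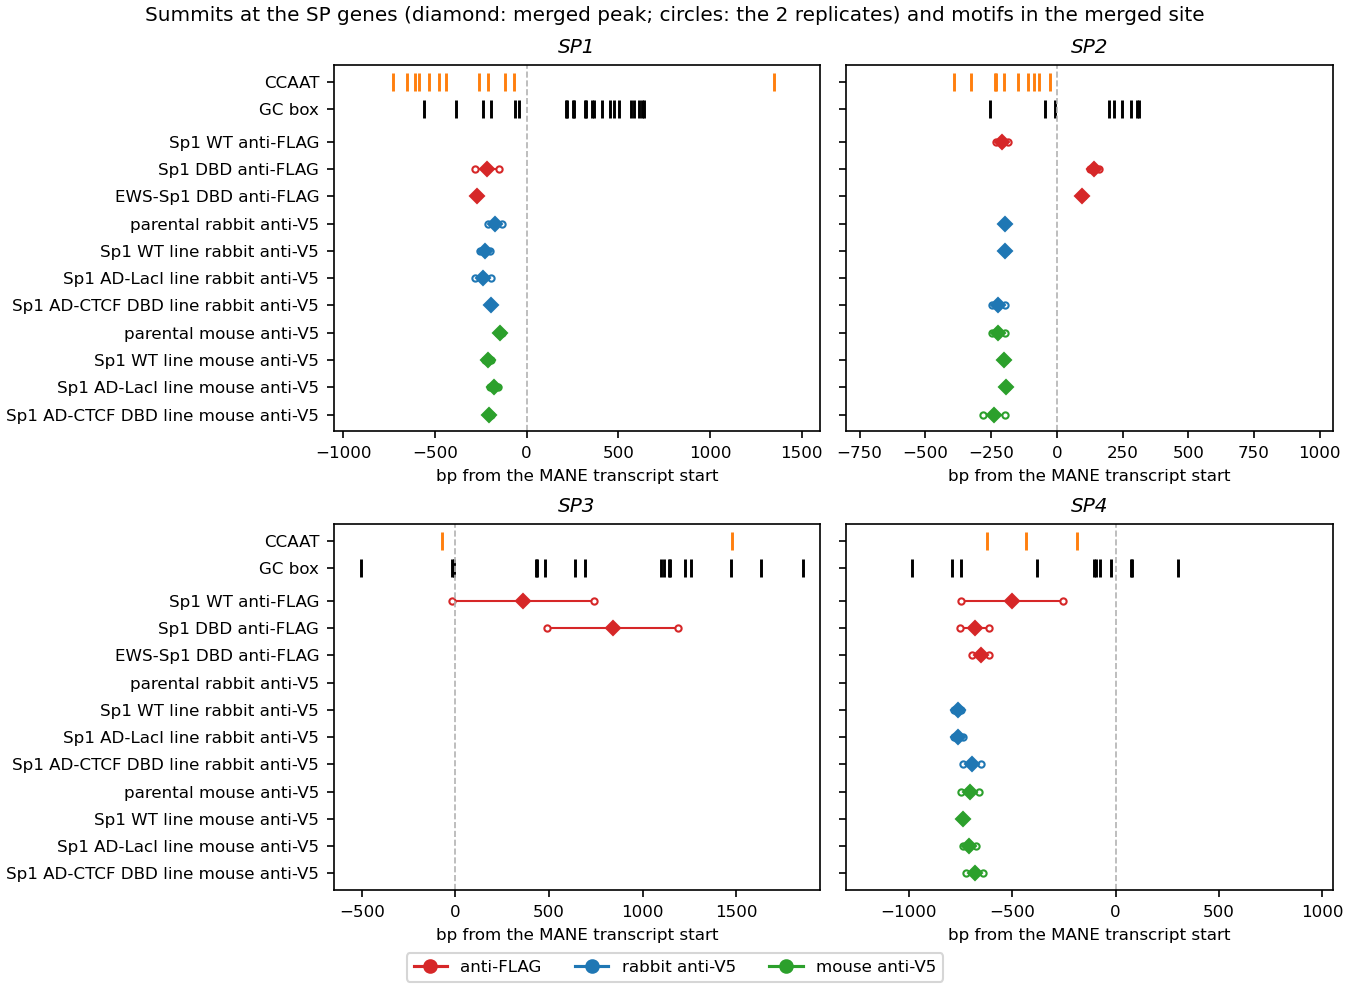
Summits at the 4 genes in the 11 lists, in bp from the MANE transcript start (x axis, negative upstream; each panel has its own range). Diamonds are merged summits, open circles the 2 replicates, black ticks GC boxes and orange ticks CCAAT in the merged site. SP1 summits fall 271 to 144 bp upstream, the Sp1 DBD and EWS-Sp1 DBD summits of SP2 lie downstream of the start, the SP3 replicates are 700 bp or more apart, and SP4 summits lie up to 763 bp upstream.

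At all 4 genes the peaks lay at or near a transcript start, though the places of their summits differed, as given above. No peak lay in the body of a gene away from its start, and the count of 32 did not change when the region was narrowed to 1000 bp around the starts. Within 100 bp of the summit, 29 of 32 peaks had a GC box (10 of 10 at SP1, 9 of 10 at SP2, 1 of 2 at SP3 and 9 of 10 at SP4). The share over all 25352 peaks of the 11 lists, the 32 included, was 77.1%. Peaks of 1 gene share their sequence, so the 32 are 4 sites and not independent, and the share is a description. The exceptions were the EWS-Sp1 DBD peak of SP2, the Sp1 DBD peak of SP3 and the Sp1 WT peak of SP4, and the last 2 have replicate summits 700 and 491 bp apart.

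Nearer to the summit the genes differed. Within 50 bp, a GC box was present at 10 of 10 SP1 peaks, 4 of 10 SP2 peaks, 0 of 2 SP3 peaks and 5 of 10 SP4 peaks, against 55.7% of all peaks. The longer form GGGGCGGGG lay within 100 bp of 1 of the 32 summits (SP2 in the Sp1 DBD list), against 35.7% of all peaks. The GC boxes under the summits of the SP genes were thus mostly of the short form, of which the windows printed above are examples. In their 300 bp promoter windows, SP1 and SP4 held 4 GC boxes each, as many as 15% of 19061 promoters held, SP2 held 3 (24.9%) and SP3 held 2 (39.8%), and 61.7% of promoters held at least 1.

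Peaks at SP1, SP3 and SP4 were long. SP1 peaks measured 1559 to 2382 bp and were longer than 95.2% to 97.9% of the peaks in their list. SP4 peaks measured 1260 to 2227 bp and were longer than 90.1% to 95.1%. SP2 peaks were shorter, 468 to 1520 bp, with 32.8% to 82.7% of the peaks in the list below them. Words of 31 bases that occur more than once in hg38 made up 8.18% of the SP1 site, 0.405% of the SP3 site and none of the SP2 and SP4 sites, so most of each site could be aligned uniquely at that length.

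The order of the genes changed between lists. SP1 ranked first of the members present in all 8 anti-V5 lists, and no replicate range of the gene next in order overlapped its own. In the Sp1 WT list the order was SP4, SP2 and SP3, with no overlap. In the Sp1 DBD list it was SP4, SP1, SP2 and SP3, where SP1 overlapped both SP4 and SP2 by its replicates. In the EWS-Sp1 DBD list SP1 came before SP4 and SP4 before SP2, and the replicate ranges did not overlap. This was also the order in the 4 mouse anti-V5 lists. In the rabbit anti-V5 lists SP2 ranked above SP4 in both lines with both peaks, and in the 4 mouse anti-V5 lists SP4 ranked above SP2. Over all lists 4 of 21 neighbouring pairs overlapped, among them SP2 and SP4 in the Sp1 AD-CTCF DBD line with rabbit anti-V5 and SP4 and SP2 in the parental line with mouse anti-V5.

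**Figure D3:**
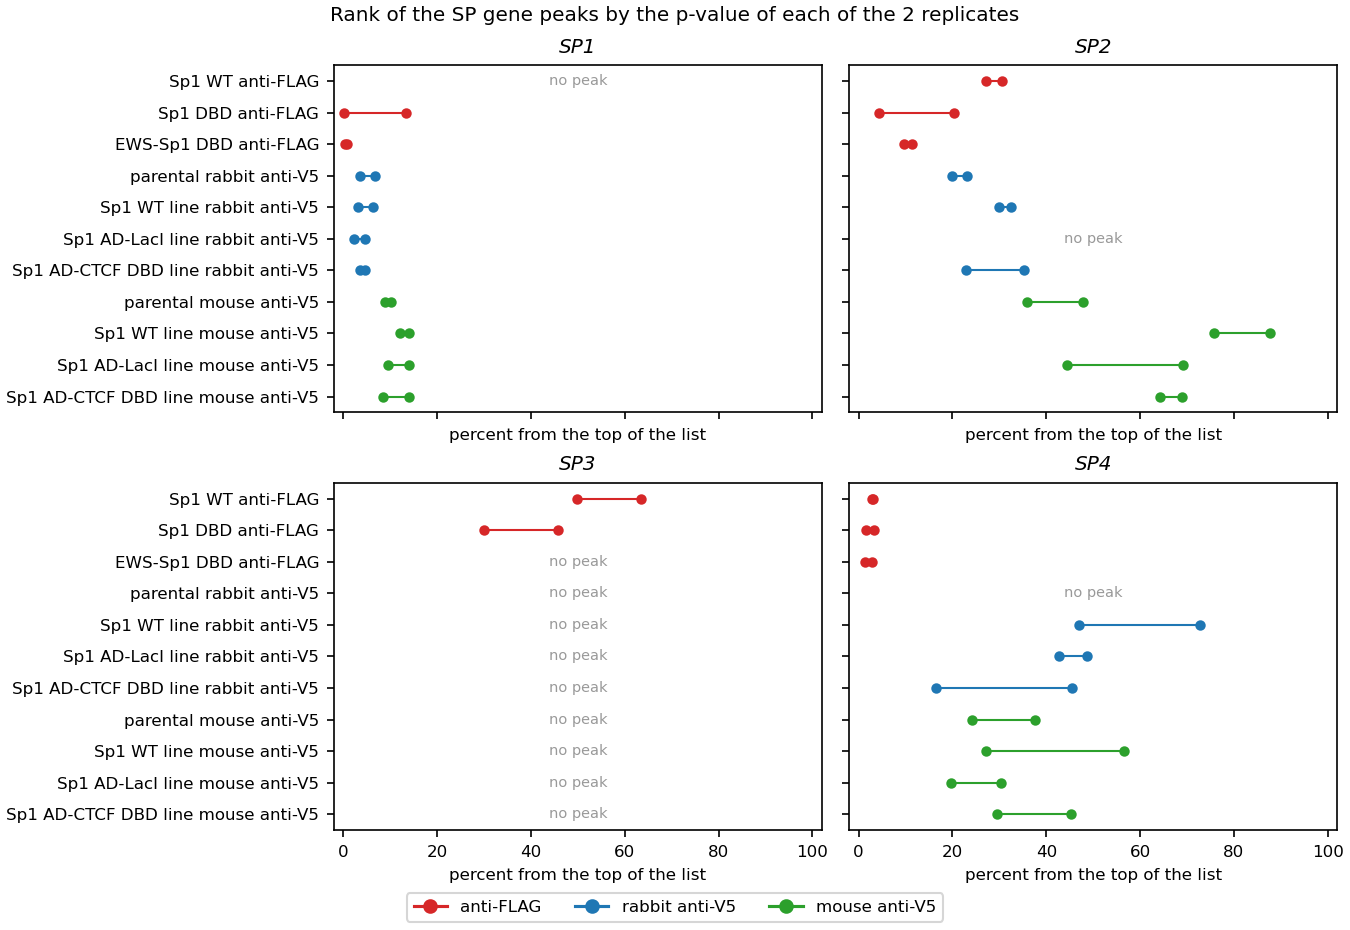
Rank of each SP gene peak by the p-value of either replicate, in percent from the top of the list (x axis, 0 is strongest), in the 11 lists (rows), with 1 panel a gene. Points are the 2 replicates and the line joins them. SP1 reaches at most 14.0% in the lists that hold it, SP2 splits by the antibody to V5, and SP4 reaches at most 3.30% with anti-FLAG.

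The spread between replicates limits these ranks. Over the 32 peaks the replicate listed second had the higher −log10 p-value in 27, and the values differed by more than 2 times in 8. Over all peaks of a list the second was the higher in 53.1% (Sp1 DBD) to 99.8% (parental line, mouse anti-V5). Which labelled replicate was listed first is not known. The replicate summits of the members were a median of 47 bp apart and at most 761 bp, and the median over all peaks of a list was 21 to 44 bp.

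Between the lines with endogenous Sp1, the SP1 peak moved little. With rabbit anti-V5 its percentile in the Sp1 WT, Sp1 AD-LacI and Sp1 AD-CTCF DBD lines was 3.1, 1.9 and 2.1 points above the parental value, and with mouse anti-V5 it differed by -1.7, -3.2 and 1.8 points. These gaps are of the size of the replicate ranges of the SP1 peak. The 3 gaps of 1 antibody share the parental list. At SP2 the mouse anti-V5 percentile differed from the parental value by -39.9 points in the Sp1 WT line, with 5.62% of 1476 genes lower, and by -21.4 and -16.5 points in the Sp1 AD-LacI and Sp1 AD-CTCF DBD lines, with 12.9% and 31.3% of genes lower. With rabbit anti-V5 the SP2 gaps were -11.4 points in the Sp1 WT line and -4.1 in the Sp1 AD-CTCF DBD line, with 31.3% and 33.0% of genes lower. At SP4 the mouse anti-V5 gaps were -18.9, 8.0 and 9.3 points in the Sp1 WT, Sp1 AD-LacI and Sp1 AD-CTCF DBD lines, with 31.4%, 80.0% and 89.3% of genes lower. The median gap over all genes with both peaks was itself -9.7 points in the Sp1 WT line with the mouse antibody. The SP2 and SP4 values of the Sp1 WT line were the lowest of the 4 lines with the mouse antibody, in the shortest of the 11 lists.

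Against all genes with a peak, the members stood in different corners. Giving 0 where no peak was listed, the mean percentile over the 8 anti-V5 lists was 92.2 for SP1, 49.4 for SP4, 44.7 for SP2 and 0.0 for SP3. Of the 6646 genes with a peak in at least 1 of the 11 lists, 98.3%, 84.6%, 83.1% and 0.0% were lower. Over the 3 anti-FLAG lists the mean was 98.3 for SP4, 83.8 for SP2, 63.1 for SP1 and 32.8 for SP3, with 99.6%, 93.8%, 84.3% and 61.4% of genes lower. The SP1 mean includes the 0 of the Sp1 WT list.

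**Figure D4:**
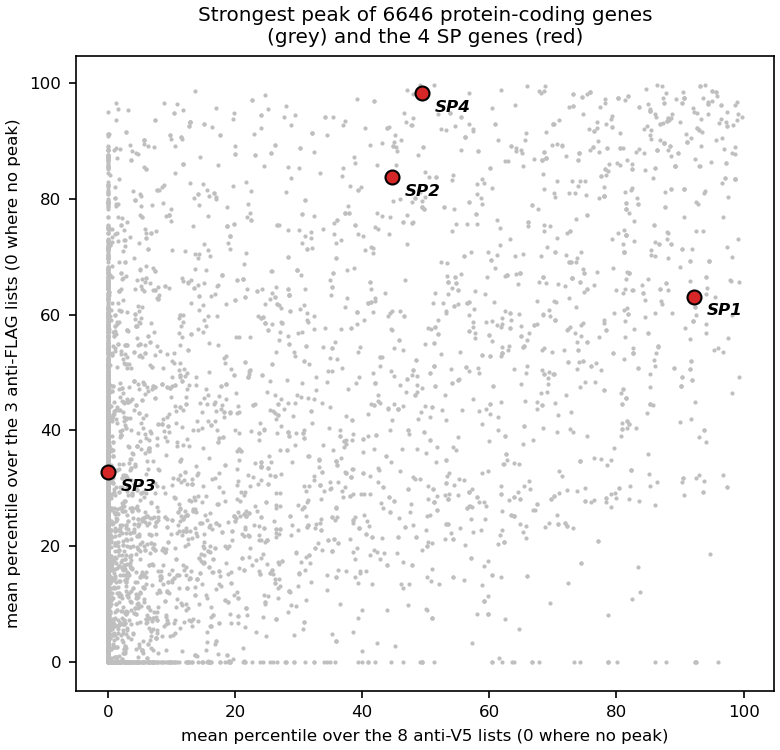
Mean percentile of the strongest peak of each protein-coding gene over the 8 anti-V5 lists (x axis) and the 3 anti-FLAG lists (y axis), with 0 where a list has no peak. Grey points are the 6646 genes with a peak in at least 1 of these lists, and red points the SP genes. SP1 lies at the right (92.2), SP4 at the top (98.3), SP2 near SP4, and SP3 on the left edge at 0.0.

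The other genes of the SP family, SP5 to SP9, are expressed in restricted tissues, mainly during development. Of these 5 genes, only SP6 had a peak, in the Sp1 WT list alone, 87.7% from the top. The KLF genes encode the sister family of zinc finger factors that bind similar GC-rich and CACCC sites. Of 18 KLF genes, 11 had a peak in at least 1 of the 11 lists and 7 had none, against a share of 33.2% of all protein-coding genes with one. Those with the highest median ranks were KLF13 and KLF16, with a peak in 9 lists each at a median of 22.8% and 27.4% from the top, KLF12 in 2 lists (28.7%) and KLF9 in 3 (32.2%). In the Sp1 WT list 10 of 18 KLF genes had a peak, in the Sp1 DBD list 7 and in the EWS-Sp1 DBD list 4, against the 27.5%, 18.4% and 13.3% of all genes given above. In the anti-V5 lists 3 to 6 of the 18 had one, against 8.06% to 13.0% of all genes.

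Among 14 genes for proteins that work with or modify Sp factors, 9 had a peak in at least 1 of the 11 lists, against 33.2% of all protein-coding genes. SIN3A, a scaffold of histone deacetylase complexes, had one in 5 lists at a median of 0.4% from the top. NFYA, a subunit of the CCAAT-binding factor NF-Y, had one in 9 lists at a median of 10.4%, E2F1, a cell cycle factor, in 7 at 58.8%, and EP300, a histone acetyltransferase, in 8 at 63.2%. No gene of these 3 related lists had a peak in at least 10 of the 11 lists. Of all protein-coding genes 4.85% did, SP1, SP2 and SP4 among them. With a share this low, none among so few genes says little about them. In the 8 other lists, KLF7 had a peak in the CTCF DBD list and no other gene of the SP and KLF families had one.

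**Figure D5:**
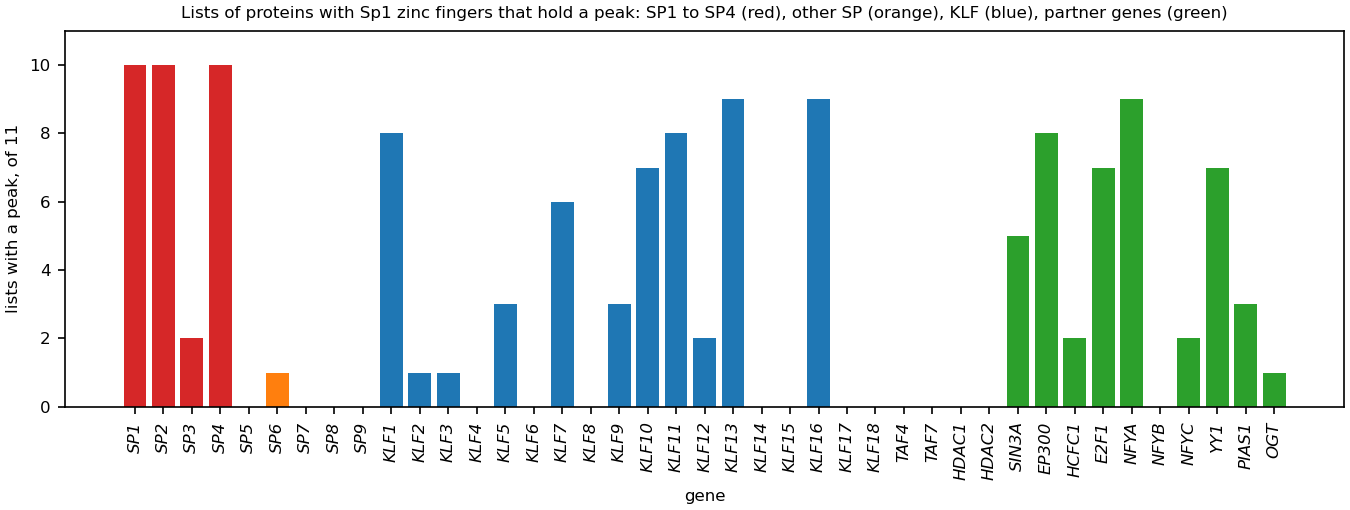
Number of the 11 lists with a peak (bars, y axis) for the SP genes and 3 related gene lists. SP1, SP2 and SP4 have 10, KLF13, KLF16 and NFYA have 9, and 4 of the 5 other SP genes have 0.

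The genes most like each member were found by the mean absolute difference of percentiles over the 19 lists, leaving out genes that share its peak. For SP1 these were ZBTB20 (1.64 points), CLEC11A (1.66) and SOWAHC (2.35), all with a peak in the same 10 lists and none in the Sp1 WT list, while the median over all genes with a peak was 47.4 points. For SP2 they were PTPN12 (8.41 points) and NBEAL2 and CCDC12 (8.77 each). For SP4 they were USP35 and KCTD21 (6.59 each) and FBXO33 (6.87). For SP3 they were FMNL3 (0.31 points), DPYSL2 (0.33) and RTEL1 (0.34), where a small value is easily reached because SP3 is at 0 in 17 of 19 lists.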

How the data were processed

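CUT&RUN was done in 38 samples, 2 replicates of each of 19 line and antibody combinations, grouped by their labels. By the study's methods, the authors trimmed reads (cutadapt 2.6), aligned them to hg38 (Bowtie2 2.3.5.1), removed duplicates (SAMtools 1.9), called peaks per replicate with MACS3 (version listed as 2.2.7.1) without local background against merged controls, and kept peaks with an IDR of at most 0.1. The deposited values are −log10 p-values of the merged peak and of both replicates, which depend on depth and served only for ranks within a list. The score used for stricter thresholds is the authors' −log10 global IDR. The authors' 6 differential tables also hold a class and a log10 likelihood ratio for each region, which were not used. Only the region boundaries were read. Depth per list is unknown, so no interval from depth is given.

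Peaks were assigned to genes with GENCODE 44 (gene body, or 5000 bp around a transcript start, with an overlap of at least 1 bp), and motifs were counted on both strands of hg38 (Python 3.11.15, pandas 2.3.3, NumPy 2.4.6, pysam 0.24.0, matplotlib 3.10.9). Promoter windows came from RefSeq on GRCh38, and all 4 genes matched. The assignment, ranking and motif code was tested on simulated data. No test between conditions was run, since an exact permutation test of 2 against 2 replicates cannot go below p = 0.33. Counts over all genes or peaks are given as background. The members, related gene lists and windows were chosen with earlier results of these data known. By rule, the text gives values for up to 4 genes with the highest median rank in a related list, names the 3 genes most like each member and genes with a start near a summit, and counts the others. KLF7 and AMHR2 were named after their values were seen, and 1 gene of the related lists is not reported here. Alternatives were other IDR thresholds, regions, starts, ranking values, motif forms, summits of single replicates and lists of equal length.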

Additional observations from a re-analysis of the deposited data

Results flagged for a closer look

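The Sp1 WT anti-FLAG list has no peak at SP1, while all 6 of the tables of replicate-combined regions, which the comparisons of peaks do not use, have regions over the SP1 site. They cover 85.8% to 100% of it. The same 6 tables have regions over the sites of SP2 (48.0% to 91.3% covered), SP3 (87.0% to 95%) and SP4 (83.4% to 94.5%), where the Sp1 WT list does have a peak. The tables set Sp1 WT against Sp1 DBD, EWS-Sp1 DBD, Sp1 AD-LacI, Sp1 AD-CTCF DBD, LacI and CTCF DBD, and the last 4 of these constructs have no listed peak at any of the genes. The share of all genes with regions in these tables was not counted. The signal was not measured in single replicates here.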

How the results depend on the processing

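Of 101 values recomputed under the alternatives, 85 stayed within 1.5 times for a count or within the replicate spread or counting interval for other values, and 16 moved. The 32 peaks and the lists with a peak at SP1, SP2 and SP4 did not move in this sense. SP3 went from 2 lists to 1 with lists of equal length. Lists at an IDR of at most 0.01 are shorter, and the median percent from the top became 11.0 for SP1 (from 7.47), 52.5 for SP2 (from 28.8), 94.8 for SP3 (from 50.8) and 46.4 for SP4 (from 30.4). By single replicates that of SP3 ranged from 39.9 to 54.7. The share of the 32 peaks with a GC box near the summit was 90.6% (95% Wilson interval 75.8% to 96.8%, counting error only). That interval, which also set which GC box shares counted as moved, treats the 32 peaks as independent, though they are 4 sites. The share became 59.4% within 50 bp, 100% anywhere in the peak and 3.12% for GGGGCGGGG. With the summit of 1 replicate it ranged from 84.4% to 100%. Over the 4 distinct sites, each scored at its median summit, it was 100%. At SP3 that point lay between the merged summits of 2 lists, and the GC boxes near it had no summit within 100 bp. Taking the midpoint of the peak, the median distance to the nearest start changed from -206.5 to 12.5 bp at SP1, from -112.5 to -17.5 bp at SP2 and from -658.5 to -218.5 bp at SP4, so the upstream position holds for summits and, at SP1, not for midpoints. Measured from the MANE start it became -198.5 bp at SP2 and 601.0 bp at SP3 (from -53.0 bp, where another SP3 start lies nearer). No paired analysis was possible because the results come from no test and the replicate columns of the lists carry no replicate number.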
